A study of Mus musculus with 6 samples.

Results

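The genes described here are 5 thermogenic effector genes of brown fat, namely Ucp1, Cidea, Elovl3, Cox7a1 and Cox8b, out of 21851 protein-coding genes with an annotated start site in GENCODE on mm10. They were chosen by name, with earlier results of these data known. Their chromatin was taken as every ATAC-seq peak with its summit between 50 kb before and 50 kb after the gene, and their promoter peaks as those with a summit within 1 kb of a start site. Open chromatin was mapped by ATAC-seq, in which a transposase cuts accessible DNA, in 6 libraries, 2 per group. Beige and white adipocytes were grown from the stromal vascular fraction of inguinal fat of wild-type male C57BL/6J mice aged 3 to 4 weeks, and brown adipocytes from that fraction of brown adipose tissue. Cells were differentiated for 7 days. Beige and brown cultures received 5 μM dexamethasone, 0.5 mM IBMX, insulin, 1 nM T3 and 1 μM rosiglitazone, and after the first days only insulin, T3 and rosiglitazone. White cultures received 1 μM dexamethasone, 0.5 mM IBMX and insulin, without T3 and rosiglitazone, and then insulin alone. Brown therefore differed from the other groups in tissue of origin, and white from the other groups in medium, so that T3, rosiglitazone and the dexamethasone dose cannot be told apart. Between brown and white both tissue of origin and medium differed, so these cannot be told apart in any comparison of brown with white. The brown libraries are known from their labels alone, since the paper does not describe them. Whether they were cultured and sequenced together with the others was not stated, so tissue of origin and any such batch cannot be told apart in a count that sets brown apart. These are whole cultures of a mixed fraction, and whether animals were pooled was not stated.

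Brown and beige adipocytes burn fuel to make heat. UCP1 sits in the inner mitochondrial membrane and lets protons bypass ATP synthase, so that respiration runs as heat. The other members serve the same cells: CIDEA coats lipid droplets and promotes their growth, ELOVL3 lengthens saturated fatty acids, and COX7A1 and COX8B are tissue-restricted subunits of cytochrome c oxidase, the last complex of the respiratory chain, for which most cells use COX7A2 and COX8A. Rodent Ucp1 is controlled by an upstream enhancer bound by nuclear receptors and cAMP-responsive factors, and beige cells are known for using the same program when induced.

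The authors' lists held 109143 to 127490 peaks per library, and 14377 to 14579 genes had a promoter peak. The lists hold no read numbers. The study's reporting summary gives the depth of the beige and white libraries, with fewer mapped reads in both beige than in both white libraries, and the depth of the brown libraries was not given in the sources used here. Because a peak's fold enrichment is relative to its own library, it is given here as a percentile, the percent of that library's peaks with an equal or lower fold. The median percentile over all promoters with a peak was 84.4 to 89.7. Of all 21851 protein-coding genes, 13547 (62.0%) had a promoter peak in all 6 libraries and 6246 in none. The label of adipocytes was checked with 10 adipocyte genes, of which 9 had a promoter peak in all 6 libraries. The exception was Lep, with a peak in brown replicate 1 only. Of 10 macrophage genes 6, among them Ptprc, Spi1 and Csf1r, had a promoter peak in no library, 2 had one in all 6 (Adgre1 and Cd68), and Cx3cr1 had one in both beige, both white and no brown library. Of 10 skeletal muscle genes 4 had one in no library (Myf5, Myog, Pax7 and Ckm) and 2 in all 6, Mylpf and Ttn. Of 10 progenitor genes 7 had a promoter peak in all 6 libraries and Ly6a in none. Of 10 endothelial genes 4 had one in all 6 and Cdh5, Emcn and Vwf in none. Each list is short, and presence of a promoter peak alone does not identify a cell type.

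The promoters of the members differ in their content of CG pairs, which is shown here because the members also differ in whether the promoter held a peak. RefSeq promoters on GRCm38.p6, which is mm10, were matched for 3 of the 5 members, Ucp1, Cox7a1 and Cox8b, and not for Cidea and Elovl3. Each runs from 250 bases before to 50 bases after the start, with every CG pair in capitals. They are the Ucp1 promoter at chr8:83290098-83290397 on the plus strand, the Cox7a1 promoter at chr7:30183921-30184220 on the plus strand and the Cox8b promoter at chr7:140900397-140900696 on the minus strand.
Ucp1 promoter: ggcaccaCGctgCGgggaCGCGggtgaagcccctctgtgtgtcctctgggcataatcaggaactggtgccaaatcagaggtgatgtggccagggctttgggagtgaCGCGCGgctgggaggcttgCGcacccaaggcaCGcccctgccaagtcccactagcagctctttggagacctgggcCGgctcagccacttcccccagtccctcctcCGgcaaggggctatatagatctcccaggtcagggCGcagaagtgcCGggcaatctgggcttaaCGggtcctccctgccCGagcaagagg
Cox7a1 promoter: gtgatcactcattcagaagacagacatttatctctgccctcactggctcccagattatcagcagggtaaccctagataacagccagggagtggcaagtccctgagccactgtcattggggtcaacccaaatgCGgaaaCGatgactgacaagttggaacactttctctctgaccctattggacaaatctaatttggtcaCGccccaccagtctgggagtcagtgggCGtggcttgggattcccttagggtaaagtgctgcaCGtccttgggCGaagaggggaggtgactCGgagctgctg
Cox8b promoter: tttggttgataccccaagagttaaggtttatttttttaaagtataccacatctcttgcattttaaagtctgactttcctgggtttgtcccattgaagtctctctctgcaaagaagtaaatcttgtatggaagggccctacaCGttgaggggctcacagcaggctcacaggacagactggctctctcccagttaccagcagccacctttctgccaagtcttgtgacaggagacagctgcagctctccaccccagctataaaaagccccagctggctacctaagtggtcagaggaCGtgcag
The Ucp1 promoter holds 15 CG pairs, the Cox7a1 promoter 7 and the Cox8b promoter 2, against a median of 7 over 32851 RefSeq promoters. At most 2 pairs are found in 23.3% of them, and at most 15 in 67.0%.

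Promoter peaks were present in both brown libraries for 4 of the 5 members, and in both beige and both white libraries for 3. The member that differed was Ucp1, which had weak promoter peaks in both brown libraries and none in the 4 others. Its strongest promoter peak stood at percentile 9.12 in brown replicate 1 and 4.22 in brown replicate 2. Their -log10 q values were 3.91 and 2.97, against the authors' threshold of 1.3, so both were close to the limit of detection. These peaks did not overlap, with summits at -124 and 98 bp. Brown replicate 2 had a weaker peak at -121 bp, at percentile 2.01 and -log10 q 2.4, that overlapped the one of replicate 1. With peaks kept only at q under 0.00001 the Ucp1 promoter peaks were lost, and 3 members had a promoter peak in both libraries of each group. Ucp1 was 1 of 5 members with a promoter peak in both brown and no white library, a pattern found in 0.485% of all protein-coding genes. It was also the 1 of 5 with a peak in both brown and no beige library, against 0.343% of all genes. None of the 5 had a peak in both beige and no white library, against 0.531%. Among 1785 genes whose RefSeq promoter has a number of CG pairs within 2 of that of Ucp1, 86.6% had a promoter peak in all 6 libraries and 4.87% in none. The Ucp1 promoter thus had peaks in fewer libraries than most promoters with a like number of CG pairs. Among the endothelial genes checked, Eng showed the same pattern as Ucp1, with a promoter peak at percentile 6.18 and 4.29 in the brown libraries and none elsewhere. The part of endothelial cells in the Ucp1 result was not tested.

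**Figure D1:**
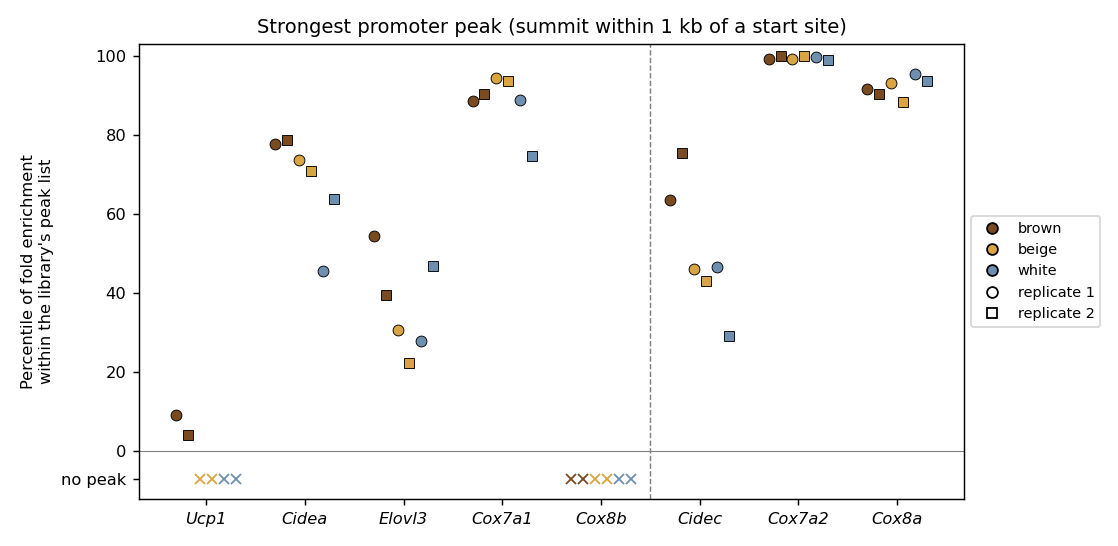
Percentile of the strongest promoter peak within its library's list for the 5 members and, right of the dashed line, 3 paralogs, with 1 point per library and a cross for no peak. Ucp1 has points in the brown libraries only, at 9.12 and 4.22, Cox8b has none, and Cidea is highest in brown, at 77.8 and 78.6.

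Cidea had a promoter peak in all 6 libraries. Its percentile was 77.8 and 78.6 in brown, 73.6 and 70.9 in beige, and 45.7 and 63.7 in white. Both brown libraries lay above both beige libraries, and both of these above both white libraries, without overlap. This order was found in 4.51% of the 13547 genes with a promoter peak in all 6 libraries. The mean was 78.2 ± 0.583 (SD, n = 2) in brown, 72.2 ± 1.88 in beige and 54.7 ± 12.8 in white. The difference of brown over white was 23.5 points and of beige over white 17.5 points. Each exact two-sided permutation test over libraries gave p = 0.333, the smallest value that 2 against 2 libraries allow.

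The other promoters with peaks in all libraries did not share the order of Cidea. The Elovl3 promoter stood at percentile 54.35 and 39.7 in brown, 30.8 and 22.4 in beige, and 27.9 and 46.85 in white. Brown exceeded beige without overlap, by 20.4 points, while the white values overlapped both groups. Ranked by -log10 q in place of fold, the means were 65.8 in brown, 59.1 in beige and 59.9 in white, so that brown exceeded beige by 6.69 points, still without overlap. The Cox7a1 promoter was the strongest of the members, at 88.7 and 90.35 in brown, 94.4 and 93.7 in beige, and 88.9 and 74.6 in white. Here beige lay above brown by 4.51 points and above white by 12.3 points, without overlap, and brown and white overlapped. The exact two-sided permutation p was 0.333 where groups did not overlap and 0.667 otherwise. Of the 3 members with a promoter peak throughout, 1 had both brown above both white libraries (34.9% of the 13547 genes) and 2 had both beige above both white (28.6%). Likewise 2 had both brown above both beige (33.4%) and 1 had both beige above both brown (17.3%). These member counts are too few to be told from the shares of all genes.

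Cox8b had no promoter peak in any library. Its nearest summits lay upstream, at -1781 bp in brown replicate 1, -2116 bp in brown replicate 2, -2111 and -1786 bp in beige, -2582 bp in white replicate 1 and -2144 bp in white replicate 2. A promoter without a peak is common among promoters with so few CG pairs. Of 2816 genes whose RefSeq promoters have at most the 2 CG pairs of Cox8b, 83.7% had a promoter peak in no library and 6.89% in all 6. Whether the number of CG pairs bears on the missing Cox8b peak was not tested. Absence from a peak list says only that no peak passed the authors' threshold.

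Promoters of the adipocyte genes also ranked higher in brown than in beige more often than not. Of the 9 adipocyte genes with a promoter peak in all 6 libraries, 6 had both brown libraries above both beige ones (33.4% of all genes) and 0 the reverse (17.3%). The counts for brown above white, 4 of 9 (34.9%), and for the reverse, 1 of 9 (14.9%), were near the shares of all genes. The median percentile of the list was 63.5 and 70.9 in brown, 46.1 and 51.7 in beige, and 60.9 and 60.3 in white. In whole cultures a larger share of differentiated cells and more accessible chromatin per cell cannot be told apart.

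Ucp1 and its flanks held more regions that differed between brown and white than any other member with its flanks. Peaks that overlapped by at least 1 bp were merged over the 6 lists into regions, of which 21 fell within 50 kb of Ucp1 (chr8:83290352-83298452, plus strand). Of these, 6 had a peak in both brown and no white library, 2 in both beige and no white library, and 1 in both white and no brown library. The 6 include the weak promoter region at -0.1 kb already described. Only 0.1003% of 21938 protein-coding genes, which include those without a start site in the basic transcript set, had as many as 6 such brown regions within 50 kb, and the median gene had 0. Neighbouring genes share windows, so this is a description. Total peak number differed less, with 15 and 15 peaks in brown, 11 and 11 in beige and 10 and 10 in white.

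Distances below run from the start site to the strongest summit, negative upstream. At -5.8 kb (chr8:83284451-83284703) the brown libraries had peaks at percentile 1.84 and 25.1, and no other library had one. At -4.8 kb (chr8:83285375-83285934) peaks stood at 57.1 and 11.4 in brown and 43.7 in beige replicate 2. At -2.5 kb (chr8:83287701-83288049), where the upstream enhancer is known to lie, they stood at 44.9 and 40.2 in brown and 35.2 and 10.1 in beige. No other region within 50 kb of Ucp1 was found in all 4 brown and beige libraries while missing from white. Downstream, a region at 10.0 kb (chr8:83300205-83300424) had peaks at 43.5 and 45.1 in brown and 25.6 in beige replicate 2. Another at 51.9 kb had peaks in brown only, at 13.2 and 41.4. Separate regions that did not overlap it lay close by on each side. The one at 51.1 kb was found in both white libraries only (26.6 and 4.68). The one at 52.6 kb was found in both beige libraries only (32.1 and 45.3). White replicate 1 had 2 peaks of its own near the gene, at 1.8 kb in an intron of Ucp1 (26.4) and at 8.7 kb (15.3).

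The sequences of the 3 upstream regions found in both brown and no white library and lying outside the promoter are shown, because no white library had a peak there, together with the 1 region near Elovl3 found in both brown, both beige and no white library. Each is mm10 sequence on the plus strand, 300 bp centred on the strongest summit, with matches to the motifs spelled out further on in capitals. They lie at chr8:83284434-83284733, chr8:83285422-83285721, chr8:83287737-83288036 and chr19:46095956-46096255.
Ucp1 region at -5.8 kb: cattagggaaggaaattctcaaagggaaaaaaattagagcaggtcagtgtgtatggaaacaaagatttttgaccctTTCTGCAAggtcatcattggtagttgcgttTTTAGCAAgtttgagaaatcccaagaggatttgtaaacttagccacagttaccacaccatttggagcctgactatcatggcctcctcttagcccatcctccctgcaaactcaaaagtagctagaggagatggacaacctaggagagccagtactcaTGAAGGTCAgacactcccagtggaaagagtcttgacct
Ucp1 region at -4.8 kb: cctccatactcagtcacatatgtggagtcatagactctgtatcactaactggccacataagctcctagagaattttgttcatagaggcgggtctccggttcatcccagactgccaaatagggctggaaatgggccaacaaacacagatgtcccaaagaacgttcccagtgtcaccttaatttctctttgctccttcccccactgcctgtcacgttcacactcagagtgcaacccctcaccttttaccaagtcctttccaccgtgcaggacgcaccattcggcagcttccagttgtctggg
Ucp1 region at -2.5 kb: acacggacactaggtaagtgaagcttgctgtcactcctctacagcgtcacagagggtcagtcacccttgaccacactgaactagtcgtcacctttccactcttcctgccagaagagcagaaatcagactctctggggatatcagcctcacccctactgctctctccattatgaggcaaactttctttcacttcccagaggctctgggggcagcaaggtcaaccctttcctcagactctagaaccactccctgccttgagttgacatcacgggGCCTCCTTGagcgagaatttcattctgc
Elovl3 region at -35.8 kb: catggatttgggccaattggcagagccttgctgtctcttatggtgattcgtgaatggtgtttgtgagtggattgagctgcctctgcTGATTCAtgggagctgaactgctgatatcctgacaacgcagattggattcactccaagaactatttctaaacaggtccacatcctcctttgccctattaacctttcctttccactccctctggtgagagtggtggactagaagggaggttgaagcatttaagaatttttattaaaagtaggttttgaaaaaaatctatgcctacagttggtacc
The capitals in the -5.8 kb region are 2 matches to the C/EBP letters and 1 to those of the oestrogen-related receptors. In the -2.5 kb region they are 1 match to the short CTCF letters, and in the Elovl3 region 1 match to those of AP-1. The -4.8 kb region held no match.

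**Figure D2:**
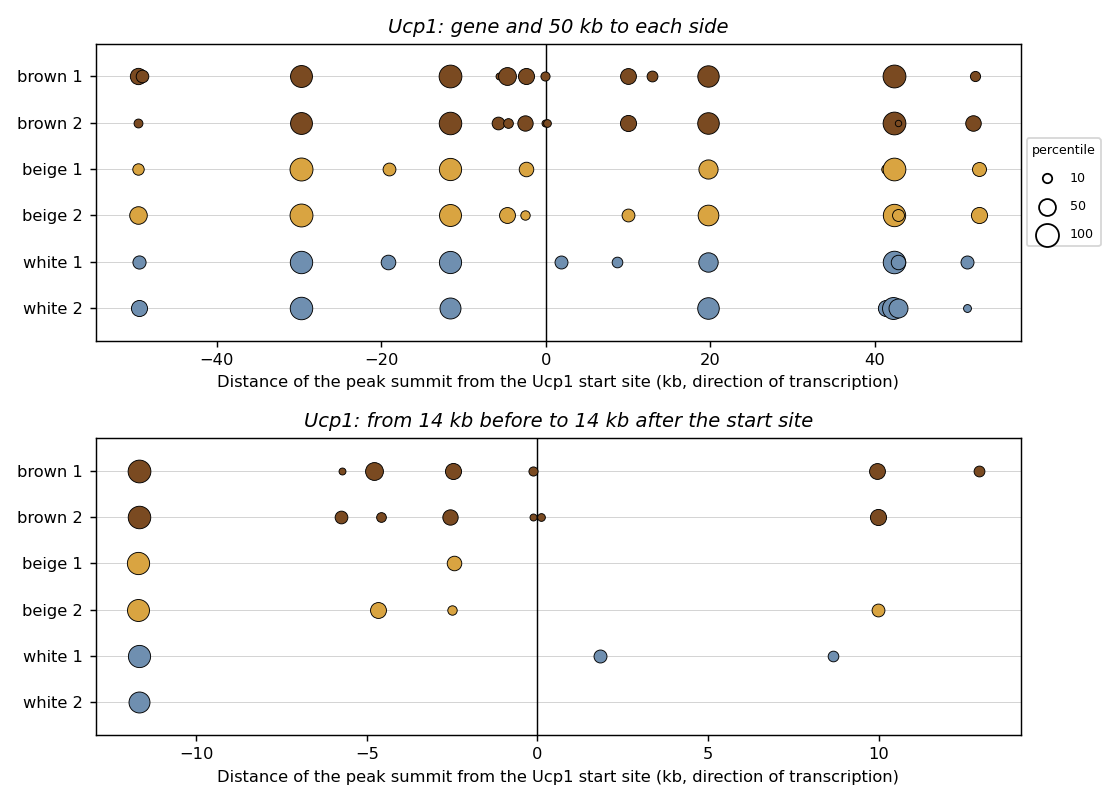
Peaks around Ucp1 by library, with distance from the start site in kb on the horizontal axis (all of the 50 kb flanks above, the central part below) and dot size growing with the percentile. Brown libraries have dots between -5.8 and -0.1 kb and at 10.0 kb where white libraries have none, and the dot at -11.7 kb is present in all 6.

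Beside these, 5 regions near Ucp1 had a peak in all 6 libraries. The intergenic region at -11.7 kb (chr8:83278230-83278937) stood at 97.9 and 95.7 in brown, 93.1 and 90.7 in beige, and 92.8 and 82.0 in white. Both brown libraries lay above the 4 others here. The region at -29.7 kb, in an intron of Tbc1d9, went the other way, with 90.1 and 89.7 in brown against 99.8 and 99.3 in beige and 94.4 and 95.4 in white. The strongest brown region was the promoter of the neighbour Elmod2 at 42.3 kb, with 98.6 and 97.9 in brown and 90.4 to 97.4 elsewhere.

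Cidea (chr18:67343604-67367785, plus strand) had 23 regions within 50 kb, and 3 of them had a peak in both brown and no white library. The intergenic region at -13.6 kb (chr18:67329780-67330231) stood at 63.3 and 64.8 in brown and 43.7 and 16.4 in beige. White replicate 1 had a separate peak close by, at -14.6 kb (48.05), that did not overlap it. The region at -7.1 kb (chr18:67336323-67336620) was found in brown only, at 59.6 and 36.8. A region in an intron of Cidea at 8.3 kb had peaks at 21.6 and 67.9 in brown and 46.0 in beige replicate 1. Both beige and no white library also had peaks at -35.6 kb (15.2 and 17.7), in an intron of Impa2, and at 26.7 kb (2.54 and 11.9). No region near Cidea was found in both white and no brown library. The strongest region lay at 26.2 kb, beyond the end of the gene, at 92.4 to 96.5 in all 6 libraries.

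Elovl3 (chr19:46131897-46135694, plus strand) had 17 regions within 50 kb. The region at -35.8 kb (chr19:46095919-46096241), whose sequence is given above, stood at 25.4 and 35.3 in brown and 38.0 and 31.3 in beige, with no white peak. The region at -23.2 kb stood at 12.6 and 60.02 in brown and 8.66 in beige replicate 2, with no white peak. The region at -45.4 kb was present throughout but higher in beige, at 76.2 and 84.5 against 39.2 and 44.3 in brown and 42.6 and 68.1 in white. Shared regions included one over an exon of Elovl3 at 3.6 kb, at 56.1 to 74.1, and the promoter of the neighbour Gbf1 at 20.6 kb, at 85.7 to 95.4.

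Cox7a1 (chr7:30184144-30186078, plus strand) lies in a gene-dense stretch, and 11 of its 19 regions had a peak in all 6 libraries. The single region found in both brown and no white library, at 9.8 kb (chr7:30193780-30194017), lies within 1 kb of a start site of Capns1, a calpain subunit gene. It stood at 17.3 and 23.9 in brown and 13.3 and 43.9 in beige. The region at 14.8 kb was found in brown replicate 2 (25.5) and both beige libraries (8.49 and 27.0). The region at -40.4 kb ran the other way, at 26.5 and 43.8 in brown, 47.3 and 59.5 in beige and 73.6 and 81.8 in white, again without overlap. The nearest upstream region, at -2.6 kb, was present in all 6 and varied from 35.4 to 72.3.

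Cox8b (chr7:140898945-140900446, minus strand) had 14 regions within 50 kb. One of these, at 31.2 kb in an intron of Sirt3, had peaks in both brown libraries (15.4 and 6.09) and no other. The region closest to the gene in several libraries, at -2.1 kb (chr7:140902400-140902908), stood at 44.1 and 47.9 in beige, 9.57 in brown replicate 2 and 4.89 in white replicate 2, and had no peak in brown replicate 1 and white replicate 1. Regions at -3.0, -8.3 and -22.2 kb were present in all 6. At -8.3 kb the brown libraries were lowest, at 85.3 and 72.3 against 98.2 and 91.7 in beige and 89.5 and 92.4 in white. A region at 42.1 kb in an exon of Ric8a was found in both white libraries only (2.95 and 0.95).

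**Figure D3:**
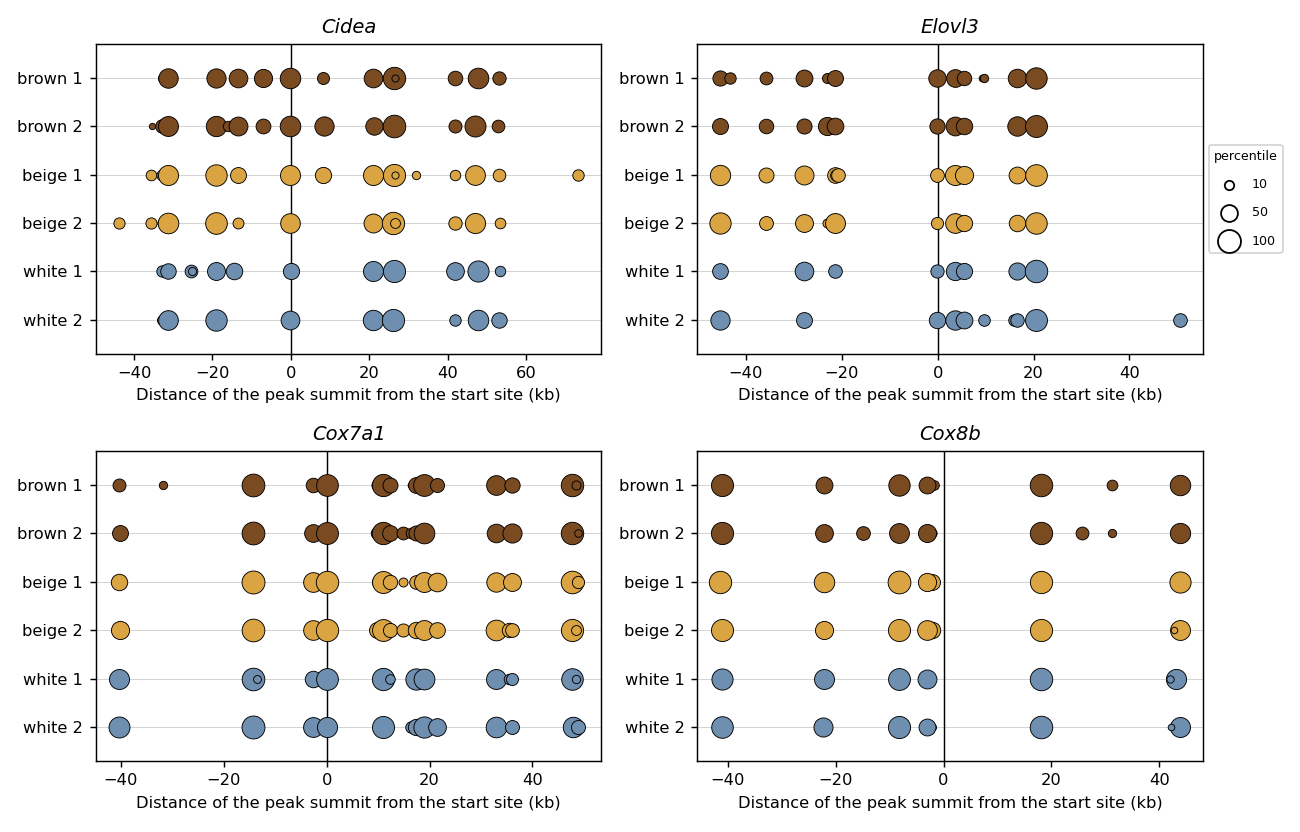
Peaks around Cidea, Elovl3, Cox7a1 and Cox8b by library, with distance from each start site in kb and dot size growing with the percentile. Dots at -13.6 and -7.1 kb of Cidea and at -35.8 kb of Elovl3 are missing from both white rows (the white dot at -14.6 kb of Cidea is a separate region), and most dots near Cox7a1 are found in every row.

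Together the 5 members had 94 of the 194610 merged regions within 50 kb. Of these, 39 (41.5%) had a peak in all 6 libraries, against 30.2% of all merged regions, and 24 (25.5%) in a single library, against 37.2%. A peak in both brown and no white library was found in 13 (13.8%), against 2.94% of all merged regions, and every member had at least 1. Cox7a1 and Cox8b had 1 each, and 31.07% of 21938 protein-coding genes had at least 1 within 50 kb. Elovl3 had 2 (8.32% of genes had as many), Cidea 3 (2.36%) and Ucp1 6 (0.1003%). The reverse, both white and no brown library, was found in 2 regions (2.13%), against 3.48% of all merged regions. For both brown and no beige library the count was 6 (6.38%, against 1.56%), and for both beige and no brown library 3 (3.19%, against 4.8%). For both beige and no white library it was 8 (8.51%, against 4.5%), and for both white and no beige library 2 (2.13%, against 1.98%). Peaks in both brown and no other library were found in 5 (5.32%, against 0.877%), 3 of them at or near Ucp1, its weak promoter region included. Peaks in both brown, both beige and no white library were found in 4 (4.26%, against 1.25%), 1 each near Ucp1, Cidea, Elovl3 and Cox7a1. The share of all genes with such a region within 50 kb was not computed. The shares of the members' regions in the brown classes were thus above those of all regions, and those of the white classes near or below them. Because the members were chosen with earlier results of these data known, these shares are a description.

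These counts depend on peaks close to the threshold. Shares of all merged regions were not computed under the alternatives below, so whether the excess over all regions holds there was not tested. With peaks kept only at q under 0.00001, 6 regions in place of 13 had a peak in both brown and no white library, 2 in place of 6 near Ucp1, and 2 in place of 6 in both brown and no beige library. A call from 1 library per group is looser by construction. Without brown replicate 2, 20 regions were found in brown and no white library. Without brown replicate 1 and without brown replicate 2, 11 and 12 were found in brown and no beige library. Without beige replicate 1 and without beige replicate 2, 15 and 14 were found in beige and no white library, and 7 and 9 in beige and no brown library. The last count was 5 without either brown library. Without white replicate 1 and without white replicate 2, 7 and 11 were found in white and no brown library.

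**Figure D4:**
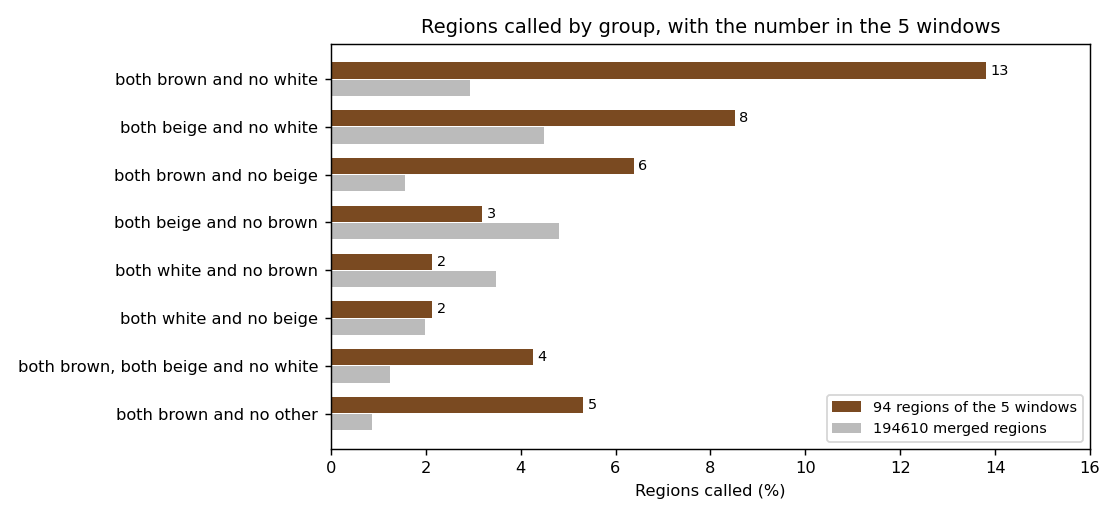
Percent of regions with a peak in both libraries of the groups named and in none of the others named, for the 94 regions of the 5 members (brown bars, with the number of regions) and all 194610 merged regions (grey bars). The bar for both brown and no white library reaches 13.8% against 2.94%.

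**Figure D5:**
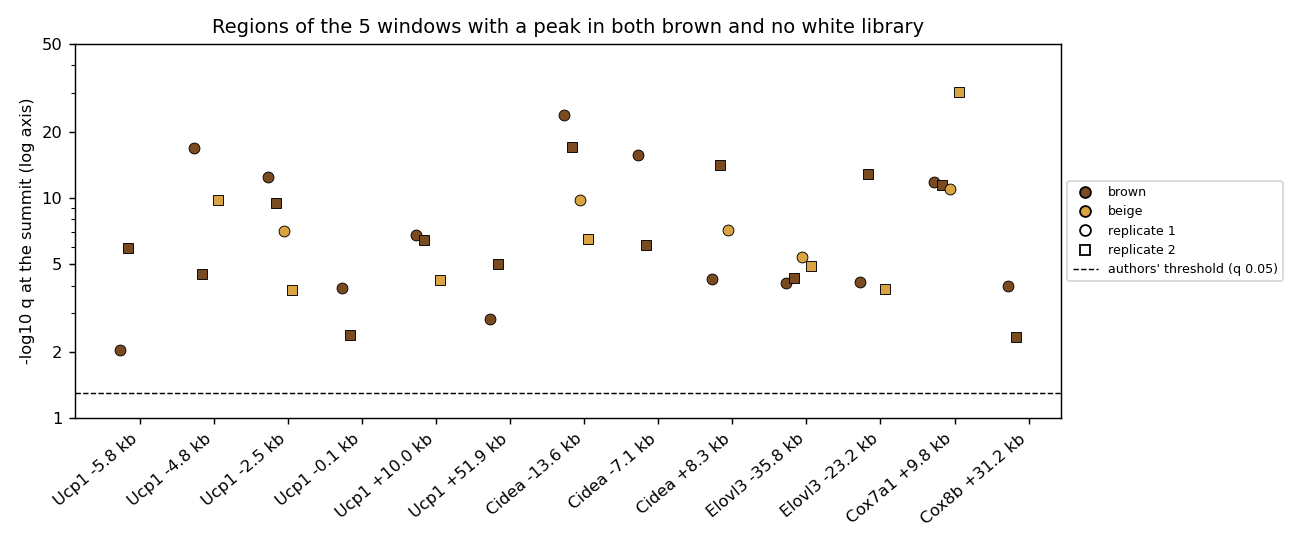
The -log10 q of each library's peak, on a log axis, in the 13 regions found in both brown and no white library, with the authors' threshold dashed. Values run from 2.04 to 30.4, beige points appear in 8 of the 13 regions, and no value is read as a larger signal in another library.

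Within the 39 regions present in all 6 libraries the ranks went in both directions. Both brown libraries lay above both white ones in 10 regions and below them in 8, against 22.7% and 23.9% of the 58720 regions present in all 6. Beige lay above white in 9 and below in 8, against 25.8% and 22.1%. Brown lay above beige in 12 and below in 14, against 24.0% and 27.3%. The shared regions thus split in both directions, near the shares of all regions.

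Consensus letters of 15 motifs were searched on both strands of the 300 bp around each strongest summit. The shares that follow are of the 94 regions and of all 194610 regions. The C/EBP letters TTGCNNAA were found in 18 regions (19.1%, against 16.6%), and AP-1 letters TGANTCA in 15 (15.96%, against 23.9%). The GC box GGGCGG was found in 11 (11.7%, against 12.9%), and CTCF letters CNAGGNGGC in 7 (7.45%, against 6.80%). ETS letters CNGGAAGT and the MEF2 letters CTA followed after 4 bases by TAG were found in 5 regions each, against 6.75% and 4.22%. The letters TGACGT, the start of the full cAMP response element, were found in 4 (4.26%, against 4.60%), and NRF1 letters GCGCNTGC in 3 (3.19%, against 3.15%). The oestrogen-related receptor letters TNAAGGTCA were found in 2 (2.13%, against 1.65%), at -5.8 kb of Ucp1 and -7.1 kb of Cidea. Both regions were found in brown libraries only, and both also hold the C/EBP letters. Of all regions found in both brown and no other library, 2.34% hold the former letters and 13.8% the C/EBP letters. EBF letters TCCC followed after 2 bases by GGGA, and glucocorticoid receptor letters GNACA followed after 3 bases by TGTNC, were found in 2 regions each, against 1.76% and 0.857%. NFI letters TGGC followed after 5 bases by GCCA were found in 1, against 1.80%. The full element TGACGTCA, which holds TGACGT, was found in 0 (against 0.752%). AGGNCA followed by AGGNCA after 1 base, bound by PPAR with RXR, or after 4 bases, bound by the thyroid hormone receptor with RXR, was also found in 0, against 0.656% and 0.639%. A missing match says only that these exact letters are not in the window.

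The paralogs of the members were compared from a list of 14 genes. Of these, 12 had a promoter peak in all 6 libraries, and Ucp3 and Cox8c in none. Cox7a2 and Cox8a, the widely used isoforms of the cytochrome c oxidase subunits, stood at 98.8 to 99.9 and 88.3 to 95.4. The contrast between Cox8b, with no promoter peak, and Cox8a, with one in every library, was one of presence. Cidec, a lipid droplet protein related to CIDEA, stood at 63.5 and 75.3 in brown, 46.1 and 43.1 in beige, and 46.6 and 29.2 in white, so that brown was highest without overlap and beige and white overlapped. The paralogs as a list did not share this: of the 12, both brown libraries exceeded both white in 2 (34.9% of all genes) and lay below them in 3 (14.9%).

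Of 30 other genes of the thermogenic program, 25 had a promoter peak in all 6 libraries, against 62.0% of all protein-coding genes. A peak in both libraries of one group and none of another was found in 0 of the 30. Each such call was made for 75 to 131 of all 21851 genes, so 0 of 30 is near the share of all genes. Of the 25, both brown libraries exceeded both white in 8 (34.9% of all genes) and lay below them in 5 (14.9%). Both beige exceeded both white in 4 (28.6%) and lay below in 8 (19.8%). Among the members and these 30, only Ucp1 had a promoter peak confined to both libraries of a single group, with peaks close to the limit of detection.

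Genes most like each member were those with the smallest root mean square difference in promoter percentile over the 6 libraries, with 0 for no peak. For Ucp1 they were Eng (1.202 points), Adgrf3 and Cldn4 (1.73 each). Of these, Adgrf3 (percentile 8.79) and Cldn4 (9.47) had a promoter peak in brown replicate 1 only, so they lack the pattern of Ucp1. In this measure, shared absence of a peak counts as likeness. For Cidea they were Epha2 (3.23), Il2rb (3.26) and Soat2 (3.98). For Elovl3 they were Fmo1 (6.48), Grm7 (7.11) and Tapbp (7.19). For Cox7a1 they were Hdac3 and Rell2 (1.497 each, from one shared promoter) and Ppp4r2 (1.69). With 6 libraries such likeness is a description.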

How the data were processed

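The 6 ATAC-seq libraries were 2 each of brown, beige and white adipocytes. The paper does not describe the brown libraries, whose labels name the same tools. The authors trimmed the reads, aligned them to mm10 with BWA and called peaks for each library on its own with MACS2 at q under 0.05. The deposited fold enrichment is a ratio of the summit pileup over the local background of that library, and the deposited -log10 q was read at the same summit. Neither is a read count, and both were used only within a list. Depth is stated by the study for the beige and white libraries only and was not used. Intervals with several summits were counted once, at the summit of highest -log10 q. Promoters lay within 1 kb of a start site of the basic transcript set of GENCODE vM21. Peaks were merged at 1 bp of overlap. Groups came from the labels. Promoter percentiles were compared by exact two-sided permutation tests of 2 against 2 libraries, and presence by counts, without a test. Motifs were searched in mm10 sequence of 300 bp. Python 3.11.15, pandas 2.3.3, numpy 2.4.6, pysam 0.24.0 and samtools 1.23.1 were used, and the merging, calls and motif search were tested on simulated data. Named genes were the members, genes of the paralog and pathway lists with a peak in both libraries of one group and none of another, Cox7a2, Cox8a and Cidec, the 3 genes most like each member, genes whose promoter a region overlaps, and the marker lists. The full paralog and pathway lists are given by counts, with Ucp3 and Cox8c named because they make a count of 2. Neighbouring genes that only hold a region in an intron or exon were named as its place. Members and lists were chosen with earlier results of these data known. Alternatives were other promoter and window sizes, stricter q values, equally long lists, every summit counted, summits clustered, all transcripts, ranks by -log10 q and leaving out each library.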

Additional observations from a re-analysis of the deposited data

How the results depend on the processing

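With 2 libraries per group no exact test can pass 0.05, and peak lists show presence at a threshold, not the amount of accessible chromatin. Promoter counts of the members kept within 1.5 times under each alternative except promoters of 3 kb, where 5 members had a peak in both beige libraries. At q under 0.00001, 3 members in place of 4 had one in both brown libraries, as Ucp1 was lost. Of the differences in promoter percentile without overlap, that of Elovl3 between brown and beige was 6.69 points when ranked by -log10 q and that of Cidea between brown and beige 9.12 points with equally long lists. All such differences of Cidea, Elovl3 and Cox7a1 kept their direction under the other lists and rankings. At Cox7a1, brown and white overlapped in the main setting. There brown exceeded white without overlap at q under 0.00001 (10.7 points), with equally long lists (9.30) and with every summit counted (7.46). The groups overlapped under the other lists and rankings. Leaving out a library gave 13 to 20 regions for brown and no white, 8 to 15 for beige and no white, 6 to 12 for brown and no beige, 3 to 9 for beige and no brown, and 2 to 11 for white and no brown. At q under 0.00001 these were 6 for brown and no white, 2 for brown and no beige, and 1 for white and no brown, and 2 for the Ucp1 regions of brown and no white. White and no brown gave 1 at q under 0.01, 1 with equally long lists, and 5 with summits clustered within 250 bp. Windows of 25 kb gave 5 regions for beige and no white, 0 for beige and no brown, 0 for white and no brown and 24 in all 6 libraries. Windows of 100 kb gave 5 for beige and no brown and 66 in all 6. Window size sets the number of regions examined. Shares of all merged regions were computed for the main setting only. The 4 members with a region in both brown, both beige and no white library were 3 or 4 under every alternative. The share of all genes with such a region was not computed. This count of members and that of the Ucp1 regions were added after the data had been seen. No paired analysis was possible because presence was counted without a test and the labels tie no replicate number of one group to that of another.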
